A study of Mus musculus with 6 samples.

Results

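Caspases are proteases that take a cell apart during apoptosis, and the inhibitor of apoptosis proteins (IAPs) hold them in check. The genes described here are 8 rows of a table of 57170 gene identifiers: the caspases Casp2, Casp6, Casp8 and Casp9, the IAP family genes Xiap, Birc2 and Birc5, and Diablo, an IAP antagonist. In the table Casp2 is ENSMUSG00000029863, Casp6 is ENSMUSG00000027997, Casp8 is ENSMUSG00000026029, Casp9 is ENSMUSG00000028914, Xiap is ENSMUSG00000025860, Birc2 is ENSMUSG00000057367, Birc5 is ENSMUSG00000017716 and Diablo is ENSMUSG00000029433. They were chosen by gene symbol, and all 8 were among the 17707 genes abundant enough to be tested. The libraries hold polyadenylated RNA of whole mouse testes at postnatal day 5. There are 2 wild-type libraries, called WT-1 and WT-2, and 4 libraries called sKO-1 to sKO-4, from testes in which Mdm2 was conditionally deleted in germ cells that had not entered meiosis. The labels name neither a Cre driver nor a strain. They also do not tie a library to an animal, and the p-values therefore reflect library-to-library spread, which may be technical.

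Mdm2 encodes the ubiquitin ligase that keeps the transcription factor p53 low, and p53 can start apoptosis through the mitochondrial route. In that route cytochrome c leaves the mitochondria, Apaf1 assembles with it into the apoptosome, and Casp9 is activated there. Casp8 is activated at death receptors, and Casp2 on the PIDDosome, a complex built on Pidd1 that can lead to cleavage of the MDM2 protein. These enzymes act on executioner caspases, of which Casp6 cleaves lamins. Xiap binds and blocks caspases directly, Birc2 acts mainly as a ubiquitin ligase in signalling from tumour necrosis factor receptors, and Diablo is released from mitochondria and displaces caspases from IAPs. Birc5 (survivin) belongs to the same family but works above all in cell division, in the chromosomal passenger complex. Caspases are made as inactive precursors, so RNA levels do not measure their activity.

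Across the libraries 17.99 M to 18.4 M expected counts (M, mega) were summed, and each of the 8 genes had at least 522.62 counts in every library. The level of Mdm2 itself, in CPM (counts divided by the scaled library size), averaged 71.6 ± 6.19 (SD, n = 2) for WT and 43.0 ± 4.24 (SD, n = 4) for sKO. Germ cell markers were far lower in the same sKO libraries. Of 18 tested markers 14 fell and 0 rose (edgeR, adjusted p under 0.05, as for the marker counts that follow). Over all tested genes 2.30% fell and 0.124% rose. Leaving out a WT library leaves 1 in that group, so no count without it is given for the markers. The summed level of the germ cell markers was 766 to 1036 CPM in WT and 204 to 306 CPM in sKO. Of 18 Sertoli cell markers 1 rose and 0 fell, with a summed level of 6727 to 7914 CPM in WT and 7797 to 8535 CPM in sKO. Their log2 fold changes were positive for 16 and negative for 2, with a median of 0.16. At 8 of the 18 every sKO library lay above both WT libraries, beside 9.79% of all tested genes. At 1 every sKO library lay below, beside 13.3%. Of the Leydig (8 tested), endothelial (8) and macrophage (10) markers 0 passed, and of 10 peritubular and stromal markers 1 fell. Log2 fold changes were positive for 8 of 8 Leydig, 7 of 8 endothelial, 6 of 10 peritubular and stromal and 2 of 10 macrophage markers. In bulk RNA, fewer cells of a type and less RNA per cell cannot be told apart, and the part that cell makeup has in the values below was not tested. The first principal component set the libraries sKO-1, sKO-2 and WT-1 (called subset 1) against the other 3 (subset 2), and no label names a batch.

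None of the 8 genes passed the comparison of sKO with WT. With edgeR's quasi-likelihood test and a Benjamini-Hochberg adjusted p under 0.05, the count was 0 of 8, while 2.43% of all tested genes passed (0.124% as higher and 2.30% as lower). At an unadjusted p under 0.05 the count was 1 of 8, Casp6, beside 13.1% of all tested genes. DESeq2 and limma-voom also passed 0 of 8. The log2 fold changes of the 8 genes ran from −0.12 to 0.28, with 4 positive and 4 negative and a median of 0.02, beside a median of 0.03 over all tested genes. Their standard errors were small, with a median of 0.10 against 0.19 for all tested genes. At 3 of 8 genes the libraries of the groups did not overlap, beside 23.0% of all tested genes. Casp6 and Casp8 lay higher in all 4 sKO libraries, as did 9.79% of all tested genes, and Diablo lay lower, as did 13.3%. With so few members these shares do not set the group apart from the background.

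**Figure D1:**
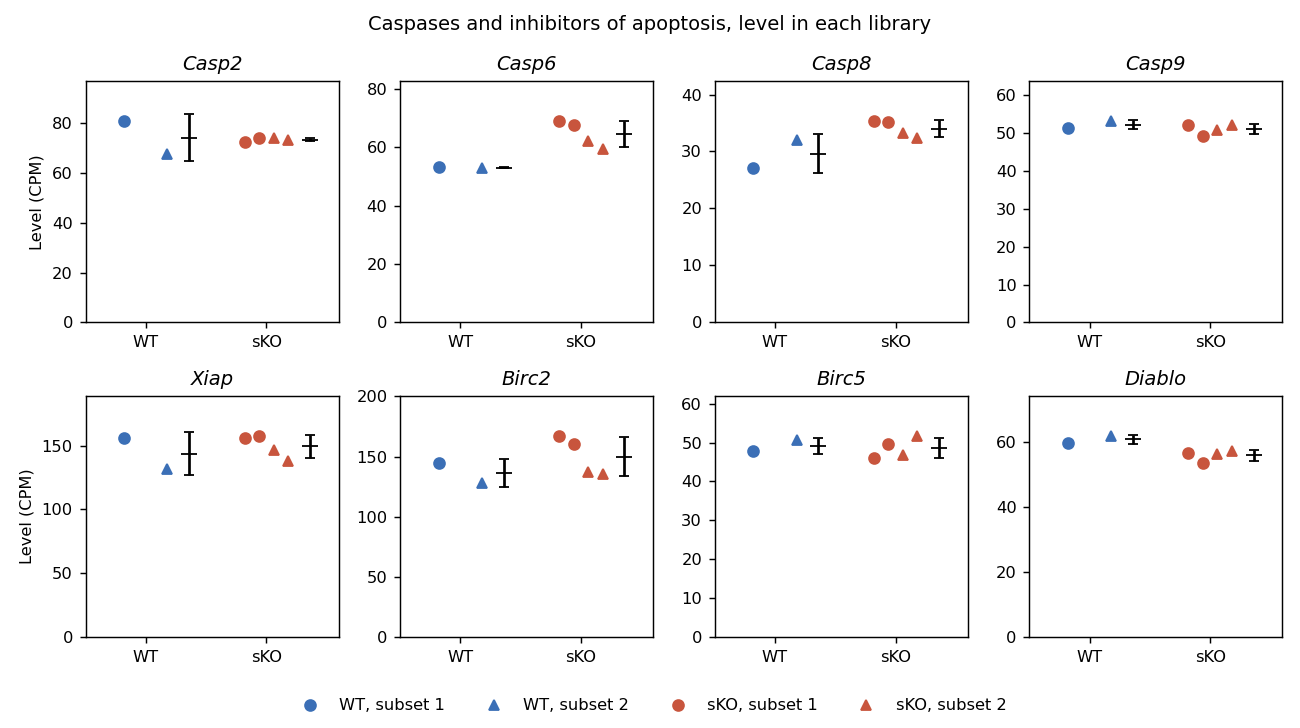
Level of each gene (CPM, linear axis from 0) in the 2 WT and 4 sKO libraries; circles are subset 1, triangles subset 2, and the bar beside each group is the mean with its SD. Casp6 is at 53.1 and 52.8 CPM in WT and between 59.3 and 68.9 CPM in sKO, while Casp9 and Birc5 lie at the same height in both groups.

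Promoter windows show where the p53 decamer motif, the unit that is repeated in p53 binding sites, occurs by sequence near these genes. The windows are those of RefSeq on GRCm38.p6, from 250 bases before to 50 after a gene's start; the counts were made on another build, mm39, so these positions are not positions in the count data. All 8 genes matched, with 11 windows. The motif was searched on both strands, which for this palindromic pattern give the same matches. It was found in 2 of the 11 windows, and 8.36% of 32851 windows of all genes hold it. A match is a description of the letters and not a binding site. The windows of 3 genes are given below: Birc5 and the second window of Birc2, which hold the match (in capitals), and Casp6, which had the largest log2 fold change of the 8 genes and no match. The Birc5 window is chr11:117848987-117849286 on the plus strand, with the match starting at −228 from the start of the gene. The Birc2 window is chr9:7836757-7837056 on the minus strand, with the match at 11 bases past the start. The Casp6 window is chr3:129901165-129901464 on the plus strand.
Birc5: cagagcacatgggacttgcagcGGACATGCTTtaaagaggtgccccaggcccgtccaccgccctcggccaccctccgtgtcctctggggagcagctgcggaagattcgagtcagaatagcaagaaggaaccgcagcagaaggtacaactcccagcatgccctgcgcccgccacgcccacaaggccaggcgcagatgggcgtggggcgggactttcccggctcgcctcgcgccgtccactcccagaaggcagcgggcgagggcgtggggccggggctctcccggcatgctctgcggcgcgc
Birc2: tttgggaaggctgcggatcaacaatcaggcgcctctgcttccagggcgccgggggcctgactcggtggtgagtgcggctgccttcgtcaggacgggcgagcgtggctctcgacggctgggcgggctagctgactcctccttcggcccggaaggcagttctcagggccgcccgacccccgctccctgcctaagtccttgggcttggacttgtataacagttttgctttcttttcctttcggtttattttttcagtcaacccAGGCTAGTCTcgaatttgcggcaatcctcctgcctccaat
Casp6: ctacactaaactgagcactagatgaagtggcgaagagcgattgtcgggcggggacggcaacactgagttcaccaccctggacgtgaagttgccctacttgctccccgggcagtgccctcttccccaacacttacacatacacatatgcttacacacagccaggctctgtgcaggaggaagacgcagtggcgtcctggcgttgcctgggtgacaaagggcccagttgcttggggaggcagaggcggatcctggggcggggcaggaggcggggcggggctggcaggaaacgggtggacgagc

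Casp2, Casp8 and Casp9 are the initiators. Casp9 was at 51.4 CPM in WT-1 and 53.2 in WT-2, and at 52.1, 49.3, 50.9 and 52.3 CPM in sKO-1 to sKO-4. The libraries of the groups overlapped, and the means were 52.3 ± 1.26 CPM (SD, n = 2) and 51.2 ± 1.37 CPM (SD, n = 4). The change of −0.03 on the log2 scale (SE 0.08, edgeR adjusted p = 0.934) had a 95% interval of 0.856- to 1.12-fold.

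Casp2 was at 80.7 CPM in WT-1 and 67.6 in WT-2, and at 72.4, 74.0, 74.0 and 73.1 CPM in the 4 sKO libraries. All 4 sKO values lay between the 2 WT values. The log2 fold change was −0.02 (SE 0.09, edgeR adjusted p = 0.972; 95% interval 0.850- to 1.15-fold). Its sign differed between the subsets, with −0.14 in subset 1 and 0.12 in subset 2, and WT-1 was the highest and WT-2 the lowest of the 6 libraries. Without WT-1 the log2 fold change of Casp2 was 0.12.

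Casp8, the initiator at death receptors, had 27.2 CPM in WT-1 and 32.1 CPM in WT-2. The sKO libraries had 35.3, 35.1, 33.3 and 32.4 CPM, above both WT libraries in each case, although sKO-4 exceeded WT-2 by little. The means were 29.6 ± 3.47 CPM (SD, n = 2) and 34.0 ± 1.44 CPM (SD, n = 4), and sKO was higher by 0.20 on the log2 scale (SE 0.11, edgeR adjusted p = 0.543; 95% interval 0.956- to 1.38-fold). Within subset 1 the difference was 0.38 and within subset 2 it was 0.03. Without WT-1 the log2 fold change of Casp8 was 0.086, and without WT-2 it was 0.30.

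Casp6, the executioner among the 8, showed the largest difference. It was at 53.1 CPM in WT-1 and 52.8 in WT-2, and at 68.9, 67.5, 62.3 and 59.3 CPM in sKO-1 to sKO-4. Every sKO library was above both WT libraries, and the means were 52.95 ± 0.153 CPM (SD, n = 2) and 64.5 ± 4.47 CPM (SD, n = 4). The log2 fold change of 0.28 (SE 0.10) corresponds to 1.22-fold with a 95% interval of 1.04- to 1.42-fold, and it did not pass after adjustment (edgeR adjusted p = 0.235). When the subset entered the fit as a term, the log2 fold change was again 0.28 (SE 0.06) and passed (edgeR adjusted p = 0.0215). The term was added after the data were seen, and the subsets were read from the same genes. Adjusted p-values with this term, here and below, are therefore given as a description. The fit with the term called 1 of the 8 genes higher and 0 lower. Over all tested genes it called 4.97% higher and 8.65% lower (13.6% in either direction). The difference was positive in both subsets, at 0.36 in subset 1 and 0.20 in subset 2. When the summed Sertoli cell markers set the library sizes it was 0.12 (edgeR adjusted p = 0.770); these adjusted p-values are the lowest and highest of 16 alternative settings. That scaling lowered the median over all genes from 0.03 to −0.13.

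**Figure D2:**
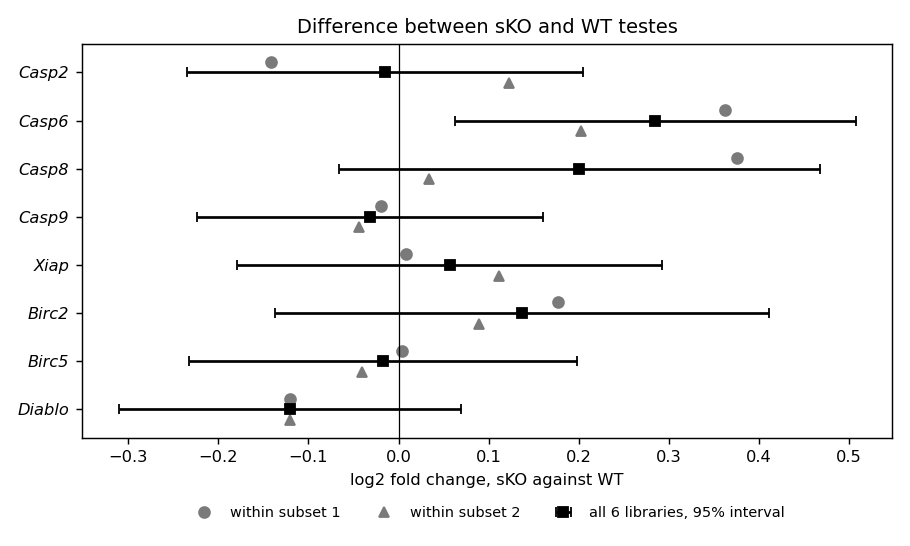
log2 fold change of sKO against WT for each gene: squares with bars are the fit over all 6 libraries with its 95% interval, grey circles the difference within subset 1 and grey triangles that within subset 2. The interval of Casp6 (0.06 to 0.51) lies above 0 before adjustment for the number of genes, and the points of Casp2 fall on both sides of 0.

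Xiap, the direct caspase inhibitor, was higher in subset 1 than in subset 2 within each group. It was at 155.8 CPM in WT-1 and 131.7 in WT-2, and at 155.8, 157.4, 146.5 and 138.3 CPM in sKO-1 to sKO-4. WT-1 lay with sKO-1 and sKO-2 at the top and WT-2 was lowest. The log2 fold change was 0.06 (SE 0.10, edgeR adjusted p = 0.895; 95% interval 0.883- to 1.22-fold), with 0.01 in subset 1 and 0.11 in subset 2.

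Birc2 was likewise higher in subset 1 within each group. It was at 144.9 CPM in WT-1 and 128.1 in WT-2, and at 167.0, 160.6, 137.4 and 135.3 CPM in sKO-1 to sKO-4. In each subset the sKO libraries were above the WT library, but sKO-3 and sKO-4 lay below WT-1. The log2 fold change was 0.14 (SE 0.12, edgeR adjusted p = 0.728; 95% interval 0.909- to 1.33-fold). Without WT-1 it was 0.23, without WT-2 0.021 and without sKO-1 0.081. In the fit with genotype and subset as terms, the log2 difference of subset 1 minus subset 2 was 0.24 for Birc2 and 0.17 for Xiap. It was between −0.05 and 0.11 for the other 6 genes. The median size of this difference over all tested genes was 0.25, so that none of the 8 exceeded it. Because the subsets were read from the same genes these differences carry no test.

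Diablo, the IAP antagonist, had 59.8 CPM in WT-1 and 61.8 CPM in WT-2. The sKO libraries had 56.5, 53.4, 56.3 and 57.4 CPM, below both WT libraries in every case. The means were 60.8 ± 1.44 CPM (SD, n = 2) and 55.9 ± 1.71 CPM (SD, n = 4), and the log2 fold change was −0.12 (SE 0.08, edgeR adjusted p = 0.634; 95% interval 0.806- to 1.05-fold). The difference was −0.12 in either subset. The ratio of Diablo to Xiap CPM within a library was 0.384 in WT-1 and 0.469 in WT-2, and 0.363, 0.339, 0.384 and 0.415 in sKO-1 to sKO-4. Only 2 of 4 sKO ratios lay below both WT ratios, and an exact two-sided permutation test over the 15 assignments gave p = 0.267 (adjusted p = 0.267 over the 2 ratios tested; log2 difference −0.18). Without WT-2 the log2 difference was −0.04 and without WT-1 it was −0.33. In the GRCm38 annotation Diablo shares exon bases with 3 other genes: 1326 with B3gnt4 and 122 with AC157931.1, both on the opposite strand, and 1193 with Gm49027 on the same strand. Those genes had at most 5.20, 185 and 10.96 counts in a library, and the sources used here do not say if strand was used in counting. Casp9 shares 94 bases with Cela2a and with Ctrc on the opposite strand, which had at most 18.2 and 0 counts. The other 6 genes shared no exon bases with a gene of the table.

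Birc5 differed between the groups by less than the spread between libraries. The WT libraries had 47.8 and 50.6 CPM, and the sKO libraries had 46.2, 49.7, 46.8 and 51.7 CPM, with overlapping groups. The means were 49.2 ± 1.998 CPM (SD, n = 2) and 48.6 ± 2.56 CPM (SD, n = 4), and the log2 fold change was −0.02 (SE 0.09, edgeR adjusted p = 0.969; 95% interval 0.851- to 1.15-fold). Its partners in the chromosomal passenger complex had negative log2 fold changes, and all 3 lay below both WT libraries in every sKO library, as did 13.3% of all tested genes. These were the kinase Aurkb at −0.19 (SE 0.08, edgeR adjusted p = 0.376), the scaffold Incenp at −0.26 (SE 0.11, edgeR adjusted p = 0.379) and Cdca8 (borealin) at −0.39 (SE 0.09, edgeR adjusted p = 0.0852). None of the 3 passed in this fit. When the subset entered as a term, Incenp and Cdca8 passed as lower (edgeR adjusted p = 0.0147 and 0.00633), beside 8.65% of all tested genes.

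The 25 proliferation genes had a median log2 fold change of −0.22, with 2 lower (Ccnb1, the mitotic cyclin, at −0.53 and Mcm7, a subunit of the replicative helicase, at −0.45) and 0 higher, beside 2.30% of all tested genes lower. Leaving out sKO-4 gave 1 lower, and leaving out any other sKO library gave 0. Without 1 sKO library, 103 to 225 of all tested genes were lower, against 408 with every library. Leaving out a WT library leaves 1, so no count is given for it. DESeq2 gave 6 lower, Sertoli library sizes 5 and the subset term 11, each with 0 higher. Over all tested genes 3.87% were lower with DESeq2 and 8.65% with the subset term. Sertoli library sizes called 618 of all tested genes lower. Of the 25 proliferation genes, 4 had a log2 fold change above that of Birc5 and 21 below it. Birc5 thus lay near the upper end but inside the list. The ratio of Birc5 to the summed CPM of the list was 0.0141 in WT-1 and 0.0165 in WT-2. The sKO libraries had ratios of 0.0176, 0.0172, 0.0175 and 0.0183, above both WT ratios in 4 of 4 libraries. The exact two-sided permutation test gave p = 0.0667, the smallest that 2 against 4 libraries allow (adjusted p = 0.133 over the 2 ratios tested), for a log2 difference of 0.21. Without WT-1 this difference was 0.10 and without WT-2 it was 0.33. Against the summed partners Aurkb, Incenp and Cdca8 the ratio was 0.169 and 0.173 in WT and 0.207, 0.225, 0.189 and 0.202 in sKO. The log2 difference was 0.26, with an exact permutation p = 0.0667, again the smallest possible. This ratio lies outside the 2 that were adjusted. Each of the partners in its denominator was itself lower in every sKO library than in WT. The germ cell markers were lower in the same 4 libraries, and their part in these ratios was not tested.

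**Figure D3:**
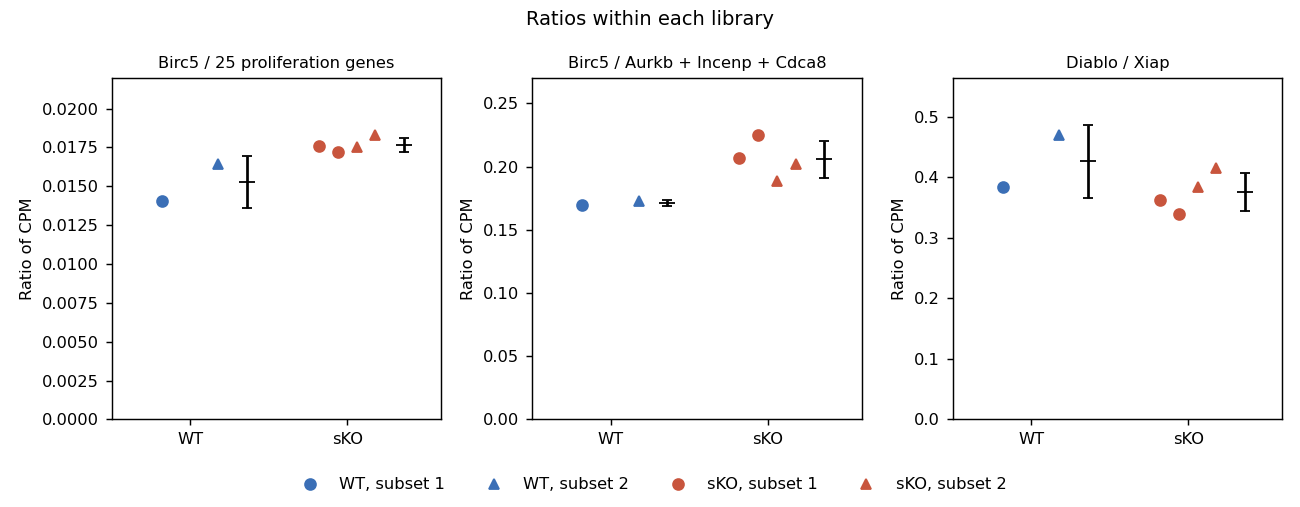
Ratio of CPM within each library (linear axes from 0): Birc5 to 25 proliferation genes, Birc5 to its 3 partners of the chromosomal passenger complex, and Diablo to Xiap; circles are subset 1, triangles subset 2, and bars show mean and SD. Both Birc5 ratios are higher in all 4 sKO libraries than in WT, and the Diablo to Xiap ratios of the groups overlap.

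The order of the 8 genes was read from CPM per kilobase of exon in the basic GENCODE M21 annotation of GRCm38, since longer transcripts collect more reads. In WT the highest were Birc2 at 37.5 ± 3.25 and Casp6 at 36.4 ± 0.105 CPM per kilobase (SD, n = 2), and their library ranges overlapped. Then came Casp2 (21.0 ± 2.63), Xiap (18.5 ± 2.19) and Diablo (16.7 ± 0.398), each overlapping its neighbour, and below them without overlap Birc5 (14.5 ± 0.587), Casp9 (13.4 ± 0.323) and Casp8 (10.2 ± 1.198). In sKO the first places were Casp6 at 44.3 ± 3.07 and Birc2 at 41.2 ± 4.43 CPM per kilobase (SD, n = 4), again with overlapping ranges. The means of the other 6 were in the same order, from Casp2 at 20.8 ± 0.216 to Casp8 at 11.8 ± 0.498. Among them only Diablo and Birc5 were neighbours with overlapping ranges in sKO.

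The surrounding pathway gave the same count. Of 44 further genes in 5 lists, 39 were tested, and 0 were higher and 0 lower in sKO (edgeR, adjusted p under 0.05; 2.43% of all tested genes passed). At an unadjusted p under 0.05 there were 4, beside 13.1% of all tested genes, and DESeq2 called 2 lower, beside 3.87% of all genes with an adjusted p. Their median log2 fold change was 0.11, with 24 positive and 15 negative. The library groups did not overlap at 11 of the 39 genes, 4 higher and 7 lower, beside 23.0% of all tested genes.

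The inflammatory caspases Casp1 and Casp4 were under 1.13 CPM in every library, and Casp14, known from skin, had no count. Among the other IAP genes, the giant ubiquitin ligase Birc6 had a log2 fold change of −0.15 (SE 0.08) and Birc3, the neighbour and close relative of Birc2, one of 0.11 (SE 0.21). Birc7, Naip1, Naip2 and the death ligand gene Fasl were too low to be tested.

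Among adaptors and activators the most abundant were cytochrome c, Cycs, at 0.19 (SE 0.14), and the caspase-like inhibitor Cflar at 0.15 (SE 0.11). Apaf1 was at 0.27 (SE 0.16, edgeR adjusted p = 0.573), and the PIDDosome genes Pidd1 and Cradd at −0.37 (SE 0.19) and 0.31 (SE 0.16). The most abundant IAP modulators were the deubiquitinase Usp9x at 0.04 (SE 0.09) and Gspt1, a translation termination factor that also has an IAP-binding form, at −0.33 (SE 0.08, edgeR adjusted p = 0.112). Of the caspase substrates, Acin1 was at −0.01 (SE 0.09) and the lamin Lmnb1 at 0.03 (SE 0.11).

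When the subset entered as a term, 4 of the 39 genes were lower and 0 higher, beside 8.65% of all tested genes lower and 4.97% higher. They were the DNA repair enzyme and caspase substrate Parp1 (−0.52, edgeR adjusted p = 0.00143), Gspt1 (−0.33, edgeR adjusted p = 0.00980), Casp8ap2 (−0.39, edgeR adjusted p = 0.0137) and the kinase Rock1 (−0.29, edgeR adjusted p = 0.0396), named after their values were seen. Without the term the edgeR adjusted p-values were 0.142 for Parp1, 0.112 for Gspt1, 0.137 for Casp8ap2 and 0.362 for Rock1. Parp1 averaged 250.9 ± 56.0 CPM over WT (SD, n = 2) and 173.4 ± 18.2 CPM over sKO (SD, n = 4). It was at 290.5 CPM in WT-1 and 211.3 in WT-2.

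**Figure D4:**
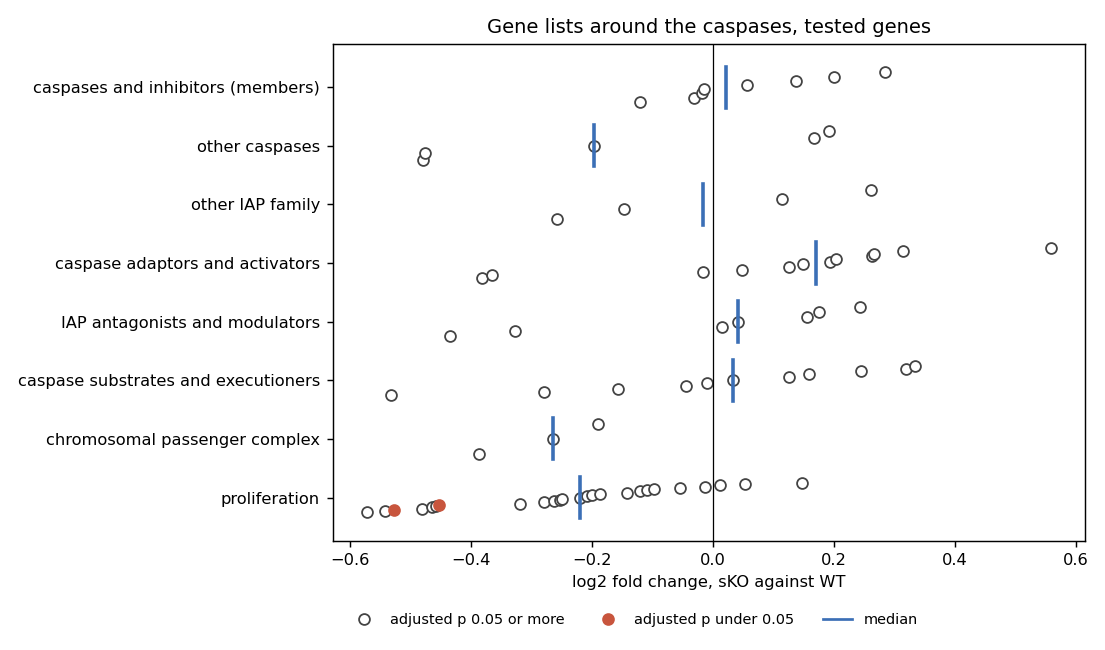
log2 fold change of sKO against WT for the tested genes of the 8 members and 7 lists (cell type markers are not drawn); open circles did not pass an adjusted p of 0.05, filled circles passed, and the vertical bar is the median of the list. The 8 caspase and IAP genes lie between −0.12 and 0.28, and the filled points are Ccnb1 and Mcm7 in the proliferation list.

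The genes whose log2 CPM followed the members most closely over the 6 libraries were Vstm4 and Cd52 for Casp6 (Pearson r of 0.998 and 0.996), Zfyve16 and Fli1 for Xiap (0.997 and 0.995), and Zfp182 and Ndrg3 for Birc2 (0.999 and 0.998). For Casp8 they were Abcg2 and Gmpr (0.995 and 0.994), for Diablo Copb2 and Retreg2 (0.992 and 0.986), and for Casp9 Clpx and Fbxo33 (0.986 and 0.981). For Birc5 they were Fhit and Usp21 (0.983 and 0.964), and for Casp2 Elfn1 and Mamdc4 (0.972 and 0.970). These are the highest values of a search through the tested genes, over 6 libraries that share genotype and subset, and are given as a description. None of the 16 genes passed the comparison of sKO with WT.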

How the data were processed

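Expected counts of 57170 identifiers were deposited by the authors as 1 table with 6 library columns; per the submitters' processing notes fastp, STAR and RSEM were used with the build mm39, with roles, versions and annotation not given in the sources used here. Per the labels' protocols, oligo dT beads captured the messages. Libraries were grouped by title, as 2 WT and 4 sKO, whereas the design text states 3 in each group. Symbols came from GENCODE M21 (GRCm38), which matched 90.5% of identifiers. Counts were rounded, filtered with filterByExpr (minimum count 10) and scaled by TMM; the quasi-likelihood test of edgeR 4.0.16 in R 4.3.3, two-sided, was run over 17707 genes with Benjamini-Hochberg adjustment and no covariate. SE is the log2 fold change divided by the root of F. Alternatives used DESeq2 1.42.0 and limma 3.58.1 (voom), among others. Log2 CPM for the principal components, the correlations between genes and the deviations of same-numbered libraries carry a prior count of 2. The differences within a subset and the log2 ratios carry none. The fit was tested on simulated data. Libraries of a group differed by a chi-square per gene of 3.92 to 23.7, above sampling noise, so none were pooled.

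All 8 members are named. In each other pathway or proliferation list the genes past the threshold are named or, with none, the 2 most abundant; the rule also took in the cell type marker lists, which are given here by counts, and for germ and Sertoli cells also by summed level, without naming genes. For each member the 2 genes closest to it are named; Casp1, Casp4, Casp14, Birc7, Naip1, Naip2, Fasl, Apaf1, Pidd1, Cradd, Aurkb and the genes called with the subset term were named after their values were seen. 2 genes that this rule takes are not reported here. The members and lists were chosen with earlier results of these data known.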

Additional observations from a re-analysis of the deposited data

How the results depend on the processing

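Over 16 alternative settings the count of caspase and IAP genes called was 0, except 1 (Casp6) with the library subset as a term, which was added after the data were seen. Of the further pathway genes, 0 were called except 2 lower with DESeq2 (Gspt1 and Parp1), 1 lower with Sertoli library sizes (Casp8ap2) and 4 lower with the subset term. Over all genes 430 were called, against 797 with DESeq2, 2411 with the subset term, 3 to 232 without 1 library (3 without WT-1) and 196 in the libraries numbered 1 and 2. In those libraries the replicate block gave 287 genes and 0 members. The deviations of same-numbered libraries had a correlation of −0.01. With 2 libraries per group this is only 1 value, so it cannot show whether the numbers pair libraries. Signs turned for Xiap (−0.12) and Birc2 (−0.031) with Sertoli library sizes, which lowered the median over all genes from 0.03 to −0.13. Without 1 library the log2 fold change ran from −0.17 to 0.12 for Casp2, from −0.088 to 0.18 for Xiap and from −0.063 to 0.0061 for Birc5; with the sign kept it ran from 0.086 to 0.30 for Casp8, from 0.021 to 0.23 for Birc2 and from −0.058 to −0.015 for Casp9. The log2 difference of Birc5 to proliferation genes ran from 0.10 to 0.33. The cause of these shifts was not tested. Each member had at least 522.62 counts in a library, while only 2 WT libraries were compared.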
